A study of Mus musculus with 12 samples.

Results

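The genes considered here encode the integrin α and β subunits and the laminin chains, chosen by symbol alone as Itga genes, Itgb1 to Itgb8 and Lama, Lamb or Lamc genes in both expression tables. Those reported number 36 of the 20775 genes listed, with 18 integrin α genes, 8 integrin β genes, 5 laminin α genes, 3 laminin β genes and 2 laminin γ genes. RNA-seq was performed on C57BL/6 mice with a floxed Med30 gene, which encodes a subunit of the Mediator complex that links transcription factors to RNA polymerase II. At embryonic stage E10.5, 3 samples of hearts from Med30 f/f embryos carrying Tnnt-Cre, which is active in cardiomyocytes (cKO), were compared with 3 samples of hearts from Cre-negative Med30 f/f littermates (Ctrl). In adults of about 3 months, 3 cardiomyocyte samples from Med30 f/f mice carrying the tamoxifen-inducible αMHC-MerCreMer (icKO) were compared with 3 from Med30 f/f mice without a Cre (Ctrl), both given tamoxifen 4 weeks earlier. The sample labels call the controls wild type and the source heart, while the protocol states that the adult material was cardiomyocytes. No control carried a Cre, so an effect of Cre cannot be told apart from the loss of Med30. The labels do not say that the samples of a group came from separate animals, so p-values here measure the spread between these samples, which may be technical.

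Integrins are cell surface receptors made of 1 α and 1 β subunit, which bind matrix proteins outside the cell and, through talin, vinculin and other adaptors, the actin cytoskeleton inside it. Laminins are secreted trimers of an α, a β and a γ chain, and form the sheet to which the other basement membrane proteins attach. In heart muscle, the α7 subunit paired with β1 is the main laminin receptor of adult cardiomyocytes, the laminin α2 chain is the main α chain around mature muscle fibres, and the α4 chain is known from the vessel wall. The α5 subunit with β1, and the αv subunit with β1, β3, β5, β6 or β8, bind fibronectin and other ligands instead.

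Values are RPKM, in which reads are divided by gene length and by the depth of the sample, so that levels of different genes can be set side by side. The reads behind them came to 13.7 to 19.9 M per sample at E10.5 and 11.9 to 17.5 M at 4 weeks, as estimated from the spacing of the lowest values. At that depth, 3 reads on a member correspond to between 0.0132 and 0.0817 RPKM at E10.5 and between 0.0151 and 0.0937 RPKM at 4 weeks, which covers counting error only. Med30 itself was at 10.6, 13.3 and 11.3 RPKM in the E10.5 Ctrl samples and at 1.38, 2.02 and 1.004 RPKM in the cKO samples, and at 7.66, 7.45 and 7.66 RPKM in the adult Ctrl samples against 3.81, 3.16 and 1.83 RPKM in the icKO samples. The 20 most abundant genes took 24.2% to 24.8% of all RPKM in adult Ctrl and 10.7% to 12.2% in icKO samples, against 8.34% to 10.4% at E10.5. Unscaled log2 fold changes were not centred on 0. Over every gene tested their median was -0.13 at E10.5 and 0.57 at 4 weeks, and -0.01 and 0.03 after median-ratio scaling, which aligns the samples on the median gene. Each change below is from limma on log2(RPKM + 0.1) as deposited, fitted per stage to genes whose 6 samples averaged more than 1 RPKM. For members, the value after median-ratio scaling is given wherever the direction or the call differs. For partner and ligand genes it is given for some only, beside the number called at 4 weeks after that scaling. Calls required a log2 fold change beyond 1 in size together with a p under 0.05 after Benjamini-Hochberg adjustment over all genes tested. Of the 36 members, 19 could be tested at E10.5, 17 at 4 weeks, 14 at both stages and 14 at neither.

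**Figure D1:**
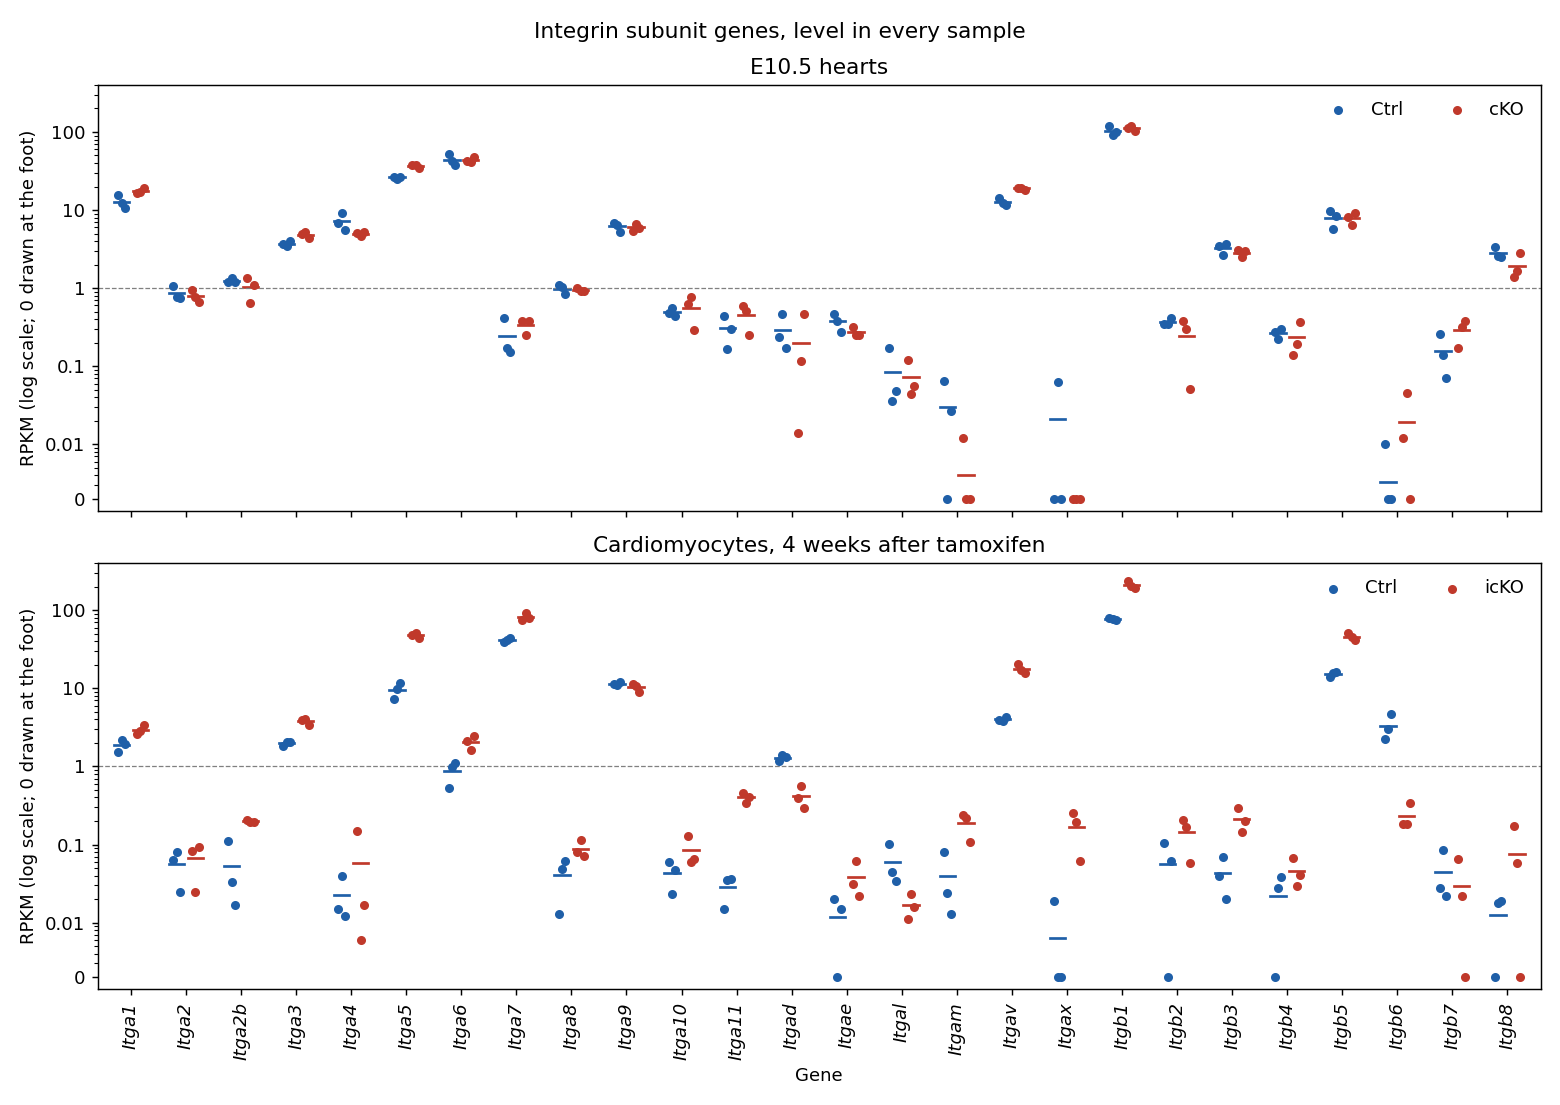
RPKM of the 26 integrin genes in each sample on a log axis, with E10.5 hearts above and adult cardiomyocytes below; points are samples, short lines are group means, the dashed line marks 1 RPKM and a value of 0 is drawn at the foot. At E10.5 the Ctrl and cKO points of most genes lie together, whereas at 4 weeks the icKO points of Itga5, Itgav, Itgb1 and Itgb5 lie above Ctrl and those of Itgb6 below.

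At E10.5, no integrin or laminin gene was called in either direction by limma, against 0.239% of all genes called higher and 0.542% called lower. Without adjustment, 5 members were higher and 1 was lower at a p under 0.05, beside 4.39% and 19.2% of all genes tested. Itgav, encoding αv, was at 14.1, 12.2 and 11.5 RPKM in Ctrl and 19.4, 19.1 and 18.3 RPKM in cKO samples, a 1.5-fold difference of the means (log2 fold change 0.59, SE 0.11, limma adjusted p = 0.0275). Itga5, encoding α5, was at 26.8, 24.9 and 26.7 RPKM in Ctrl and 37.7, 37.3 and 34.3 RPKM in cKO samples, a 1.39-fold difference (log2 fold change 0.48, SE 0.10, limma adjusted p = 0.0374). In both genes all cKO values lay above all Ctrl values. These 2 members were the only ones at an adjusted p under 0.05, where 0.864% of all genes were higher and 3.45% were lower; no member was lower. The pair was not stable to the omission of samples: without Ctrl replicate 1 there was 1 such member, without Ctrl replicate 2 or 3 or cKO replicate 1 or 2 there was none, and without cKO replicate 3 there were 2.

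Itga6, whose product binds laminin, was the most abundant α gene of the embryonic heart. It was at 51.6, 42.6 and 37.8 RPKM in Ctrl and 42.5, 40.8 and 48.3 RPKM in cKO samples, and the groups overlapped (log2 fold change 0.00, SE 0.14). Itga1, encoding a collagen-binding subunit, was at 15.4, 12.4 and 10.7 RPKM in Ctrl and 16.4, 17.0 and 19.3 RPKM in cKO samples, without overlap, but did not pass the adjusted threshold (limma adjusted p = 0.0945). Part of the Itga1 exons, 685 bp, is shared with the annotated gene Gm49395 on the same strand. Itga4, whose product binds fibronectin and VCAM1, was at 6.85, 9.18 and 5.58 RPKM in Ctrl and 5.02, 4.60 and 5.16 RPKM in cKO samples (log2 fold change -0.51, SE 0.18, limma adjusted p = 0.122). It was the only tested member whose cKO values all lay below Ctrl, an arrangement found in 22.6% of all genes. The opposite arrangement, with all cKO values above Ctrl, was found in 6 of the 19 tested members (Itga1, Itga3, Itga5, Itgav, Lamb1 and Lamc1) and in 6.50% of all genes. Itga9, encoding a tenascin-binding subunit, was at 6.87, 6.48 and 5.25 RPKM in Ctrl and 5.38, 6.66 and 5.96 RPKM in cKO samples, with overlap and a direction that turned with scaling (log2 fold change -0.04 as deposited and 0.08 after median-ratio scaling). Itga3 and Itga2b ranged over 3.44 to 5.17 RPKM and 0.647 to 1.35 RPKM in the embryo. Itga7, the main adult partner of β1, was low in the embryo, at 0.154 to 0.410 RPKM over the 6 samples, and was not tested.

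Among the β genes of the embryo, Itgb1 took most of the signal. It was at 118, 91.8 and 101 RPKM in Ctrl and 113, 118 and 102 RPKM in cKO samples, which overlapped (log2 fold change 0.10, SE 0.14). Itgb5, a partner of αv, was at 9.61, 5.64 and 8.27 RPKM in Ctrl and 8.14, 6.43 and 9.24 RPKM in cKO samples and overlapped as well. Itgb3 and Itgb8, other partners of αv, ranged over 2.52 to 3.65 RPKM and 1.38 to 3.40 RPKM. Itgb6 was near zero, with 5 of its 6 values at or under 3 reads.

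The most abundant laminin genes of the embryonic heart were Lama4, Lamb1 and Lamc1, whose chains form a known trimer. Lama4 was at 38.5, 32.7 and 31.1 RPKM in Ctrl and 34.7, 38.1 and 39.2 RPKM in cKO samples, which overlapped. Lamb1 was at 43.8, 32.5 and 35.0 RPKM in Ctrl and 44.2, 48.8 and 47.8 RPKM in cKO samples. Lamc1 was at 42.9, 34.8 and 36.5 RPKM in Ctrl and 43.7, 47.6 and 44.9 RPKM in cKO samples. For Lamb1 and Lamc1 the groups were separate by a narrow margin and neither passed (log2 fold changes 0.35 and 0.26, limma adjusted p = 0.151 and 0.214). Lamb2, encoding the β2 chain of mature muscle, was at 7.74, 7.21 and 8.45 RPKM in Ctrl and 8.95, 8.66 and 8.31 RPKM in cKO samples. Lama5 was at 3.93, 5.08 and 5.24 RPKM in Ctrl and 3.99, 5.95 and 4.71 RPKM in cKO samples. Lama1 and Lama2 ranged over 0.705 to 1.71 RPKM and 0.989 to 2.38 RPKM, and in all 4 genes the groups overlapped. After median-ratio scaling, 5 members had an adjusted p under 0.05 and all were higher in cKO (Itga1, Itga5, Itgav, Lamb1 and Lamc1, log2 fold changes 0.38 to 0.70), where 2.45% of all genes were higher. The median log2 fold change of the tested members was 0.10 as deposited, against -0.13 over all genes.

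**Figure D2:**
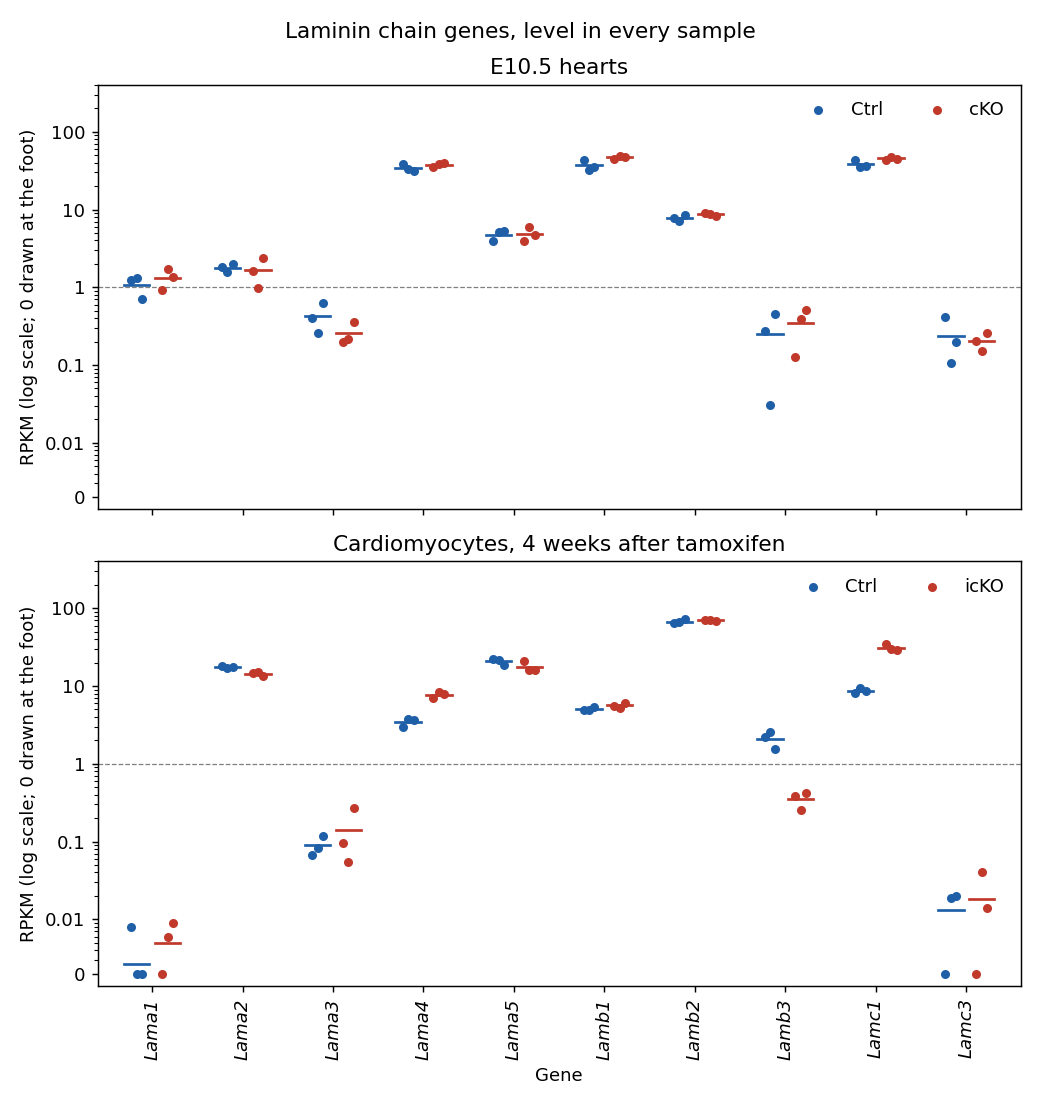
RPKM of the 10 laminin genes in each sample on a log axis, drawn as for the integrins. Lama4, Lamb1 and Lamc1 lead at E10.5 in both genotypes, while in adult cardiomyocytes Lamb2 leads, Lamc1 and Lama4 lie higher in icKO and Lamb3 lies lower.

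In adult cardiomyocytes 4 weeks after tamoxifen, 7 members were called higher in icKO (Itga5, Itga6, Itgav, Itgb1, Itgb5, Lama4 and Lamc1) and 2 were called lower (Itgb6 and Lamb3), of 17 tested. Itgb6 and Lamb3 stayed under 1 RPKM in every icKO sample, so both passed the filter for testing only through Ctrl. Itga6, at 0.527, 0.994 and 1.10 RPKM in Ctrl, passed it only through icKO. Of all genes, 28.0% were called higher and 8.45% lower. Tested integrins had a median log2 fold change of 1.08 and tested laminins of 0.07, against 0.57 over all genes. After median-ratio scaling these medians were 0.56 for integrins and -0.47 for laminins, against 0.03, so that the laminin median turned. With that scaling, 4 members were called higher (Itga5, Itgav, Itgb5 and Lamc1) against 11.3% of all genes, and the same pair was called lower against 15.9%. Genes for the fibronectin-binding α5 and αv subunits, for β5 and for the laminin γ1 chain were thus called higher both as deposited and with that scaling. Itgb1, Itga6 and Lama4 were called as deposited and not after median-ratio scaling. In the study's own DESeq2 test at these thresholds, more genes were down than up at 4 weeks. Over all genes, median-ratio scaling gave that balance and RPKM as deposited the reverse. With a pseudocount of 1, or scaled without the 20 most abundant genes, 5 members were called higher, since Itga6 (log2 fold changes 0.71 and 0.96) and Lama4 (0.96 and 0.89) came under the limit of 1.

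Itga5 was at 7.33, 9.74 and 11.7 RPKM in Ctrl and 48.4, 51.3 and 44.6 RPKM in icKO samples, a 5.01-fold rise of the mean (log2 fold change 2.34, SE 0.16, limma adjusted p = 1.86e-06). Itgav was at 3.98, 3.79 and 4.35 RPKM in Ctrl and 20.5, 17.2 and 15.6 RPKM in icKO samples, a 4.39-fold rise (log2 fold change 2.10, SE 0.12, limma adjusted p = 8.93e-07). These were the α genes with the largest increases among those tested, and in each the groups lay far apart. For Itgav, 634 bp of exon overlap Gm13684 on the other strand, and whether the counting used strand is not given in the sources used here. Itga7 was the most abundant α gene at 39.4, 41.7 and 44.0 RPKM in Ctrl and 75.0, 93.1 and 78.5 RPKM in icKO samples, without overlap. Its log2 fold change of 0.97 (SE 0.10, limma adjusted p = 1.80e-05) lay just inside the limit of 1, which it passed without Ctrl replicate 3 or icKO replicate 1 or 3, and was 0.43 after median-ratio scaling. Itga6, so abundant in the embryo, was at 0.527, 0.994 and 1.10 RPKM in adult Ctrl and 2.10, 1.63 and 2.42 RPKM in icKO samples (log2 fold change 1.18, SE 0.28, limma adjusted p = 0.00362). The Itga6 call was lost without Ctrl replicate 1, the lowest sample (log2 fold change 0.89), and after median-ratio scaling (0.68, limma adjusted p = 0.0572).

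Itga3 and Itga1 had log2 fold changes under the limit of 1. Itga3, another laminin-binding subunit, had a mean of 1.97 ± 0.146 RPKM in Ctrl and 3.77 ± 0.305 RPKM in icKO samples (SD, n = 3), a log2 fold change of 0.90. Itga1 was at 1.53, 2.15 and 1.91 RPKM in Ctrl and 2.61, 2.81 and 3.43 RPKM in icKO samples, and its log2 fold change of 0.64 was close to that of the median gene and was 0.12 after median-ratio scaling (limma adjusted p = 0.558). Itga9 was at 11.3, 10.997 and 11.99 RPKM in Ctrl and 11.2, 10.8 and 9.03 RPKM in icKO samples. The groups overlapped as deposited (log2 fold change -0.15, SE 0.11, limma adjusted p = 0.226), but relative to the median gene Itga9 fell (log2 fold change -0.68 after median-ratio scaling, limma adjusted p = 0.000243). Itga4, readily detected in the embryo, had all 6 adult values at or under 0.15 RPKM.

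Itgb1 was at 80.3, 77.3 and 74.8 RPKM in Ctrl and 236, 205 and 194 RPKM in icKO samples, a 2.73-fold rise (log2 fold change 1.44, SE 0.09, limma adjusted p = 1.18e-06). After median-ratio scaling its log2 fold change was 0.90 (limma adjusted p = 1.73e-05), past the adjusted p but not the limit of 1. Itgb5 was at 14.1, 15.8 and 16.02 RPKM in Ctrl and 51.0, 45.3 and 41.6 RPKM in icKO samples, a 3.00-fold rise (log2 fold change 1.58, SE 0.10, limma adjusted p = 1.37e-06). Itgb6, known from epithelia, where with αv it activates latent TGFβ, went the other way. It was at 2.24, 3.01 and 4.74 RPKM in Ctrl and 0.181, 0.183 and 0.341 RPKM in icKO samples (log2 fold change -3.32, SE 0.32, limma adjusted p = 1.43e-05). All icKO values lay far below the lowest Ctrl value, while all 3 lay above the RPKM of 3 reads. In the GENCODE annotation (GRCm38) Itga5 lies at chr15:103344286-103366763, Itgav at chr2:83724397-83806916, Itgb1 at chr8:128685654-128733200, Itgb5 at chr16:33829665-33949338 and Itgb6 at chr2:60598292-60722643. No exon of Itga5, Itga6, Itgb1, Itgb5 or Itgb6 overlaps that of another annotated gene.

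Lamc1 and Lamb3 changed in opposite directions. Lamc1, whose γ1 chain is in most laminins, was at 8.12, 9.33 and 8.64 RPKM in Ctrl and 34.3, 29.8 and 29.3 RPKM in icKO samples, a 3.58-fold rise (log2 fold change 1.83, SE 0.10, limma adjusted p = 6.41e-07). Lamb3, encoding the β3 chain of epithelial basement membranes, was at 2.19, 2.54 and 1.56 RPKM in Ctrl and 0.384, 0.253 and 0.416 RPKM in icKO samples (log2 fold change -2.28, SE 0.27, limma adjusted p = 5.25e-05). Lama3, whose α3 chain is likewise known from epithelia, ranged over 0.0540 to 0.271 RPKM across both groups and was not tested. In the same annotation Lamc1 lies at chr1:153218922-153332786 on the minus strand and Lamb3 at chr1:193207699-193343878 on the plus strand. Without Ctrl replicate 2, the mean of Lamb3 fell under 1 RPKM, the gene was not tested and 1 member, Itgb6, was called lower.

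Lama4 was at 2.98, 3.78 and 3.67 RPKM in Ctrl and 6.93, 8.29 and 7.90 RPKM in icKO samples (log2 fold change 1.13, SE 0.13, limma adjusted p = 3.97e-05), and its log2 fold change was 0.60 after median-ratio scaling, past the adjusted p but not the limit of 1. Lama2 was at 17.9, 17.0 and 17.6 RPKM in Ctrl and 14.6, 15.1 and 13.3 RPKM in icKO samples, lower without overlap (log2 fold change -0.29, SE 0.08, limma adjusted p = 0.0116). Lama5, whose chain is widespread in adult basement membranes, was at 22.2, 21.6 and 18.4 RPKM in Ctrl and 20.9, 16.1 and 15.9 RPKM in icKO samples, with overlap (limma adjusted p = 0.109). Lamb2, the most abundant laminin gene, was at 64.8, 65.6 and 72.0 RPKM in Ctrl and 71.6, 71.4 and 69.2 RPKM in icKO samples, and Lamb1 was at 4.90, 4.85 and 5.35 RPKM against 5.61, 5.26 and 6.06 RPKM. Both β genes overlapped between groups, with log2 fold changes of 0.07 and 0.16 as deposited and of -0.47 and -0.37 after median-ratio scaling. At an adjusted p under 0.05 with no limit on size, 10 members were higher and 3 were lower as deposited, beside 60.6% and 18.1% of all genes. After median-ratio scaling 8 were higher and 7 were lower (Itga9, Itgb6, Lama2, Lama5, Lamb1, Lamb2 and Lamb3), beside 34.3% and 34.0%. All icKO values lay above all Ctrl values in 10 tested members and below in 3, beside 62.0% and 18.9% of all genes.

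**Figure D3:**
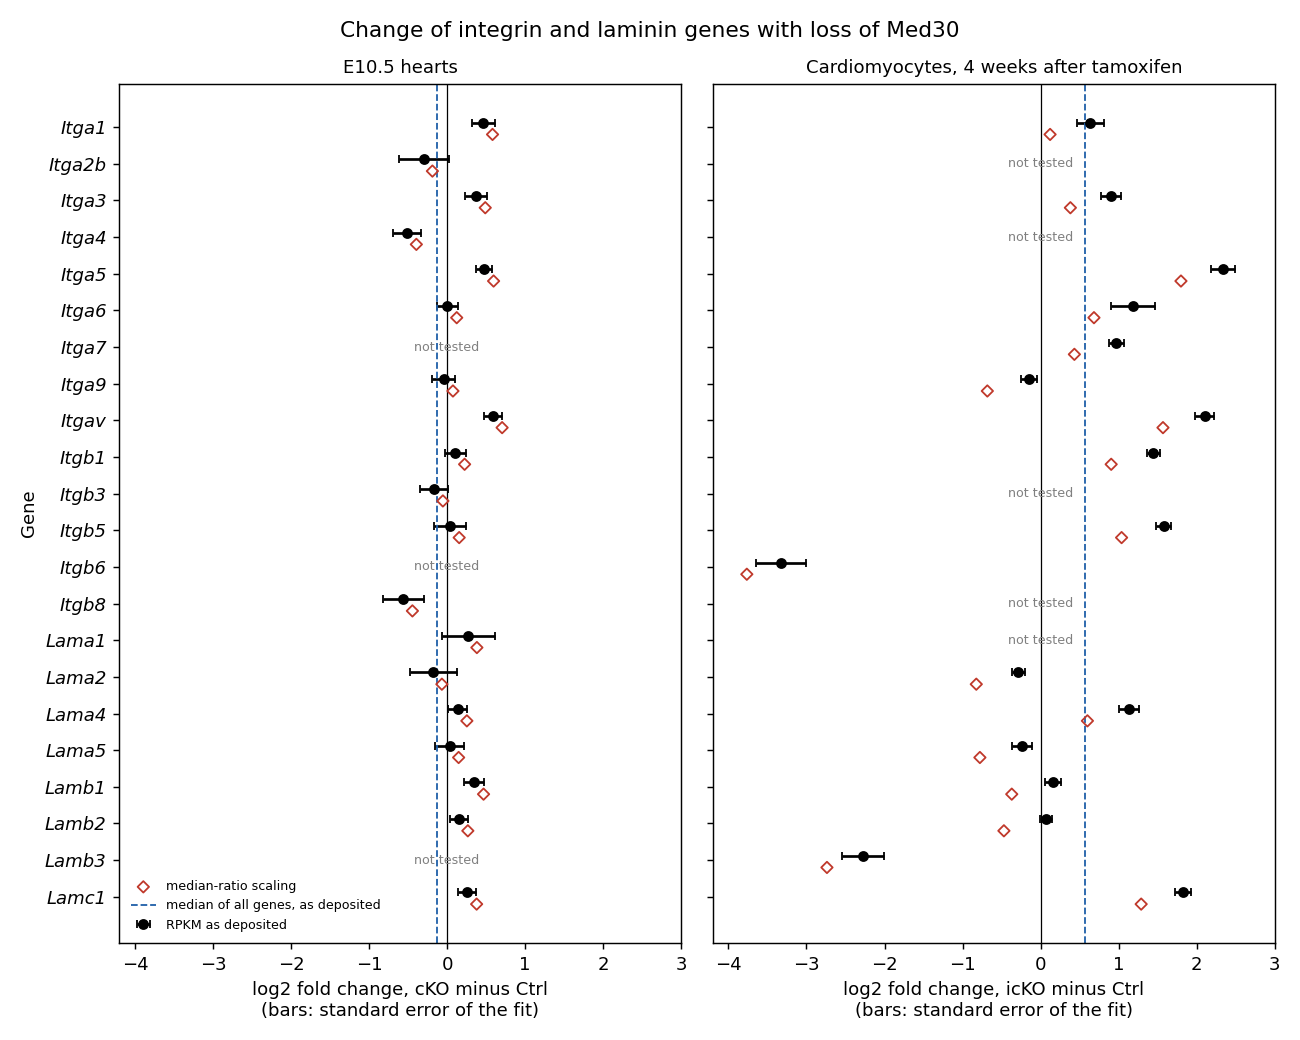
Log2 fold change of each member tested at a stage, cKO or icKO minus Ctrl; filled points with bars are RPKM as deposited with the standard error of the limma fit, open diamonds are median-ratio scaling, and the dashed line is the median of all genes as deposited. At 4 weeks the points spread from -3.32 for Itgb6 to 2.34 for Itga5, while at E10.5 none lies beyond 1 in either direction.

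The remaining members were at low levels. At E10.5 none of the 17 untested members had groups that did not overlap, an arrangement found in 3.63% (higher) and 7.05% (lower) of all untested genes listed above 0, and the highest single value among them was 1.09 RPKM. Of these, Itgam, Itgax and Itgb6 had at least 3 of 6 values at or under 3 reads, and Itgax, of dendritic cells and macrophages, was listed at 0 in 5 samples. At 4 weeks, 8 of 19 untested members were that low, and Lama1 had all 6 values at or under 3 reads, with 3 of them at 0. Among the untested adult members, 7 had all icKO values above Ctrl (Itga2b, Itga8, Itga11, Itgae, Itgam, Itgax and Itgb3) and 2 had them below (Itgad and Itgal), beside 23.9% and 9.91% of all untested genes listed above 0. Of these 9, Itgae had 5 of 6 values at or under 3 reads, Itgax 4 and Itgal 3. The other 10 overlapped and did not exceed 0.271 RPKM in any sample. Itga11, encoding a collagen receptor known from fibroblasts, was at 0.0150, 0.0350 and 0.0360 RPKM in Ctrl and 0.456, 0.339 and 0.406 RPKM in icKO samples. Itgb3 was at 0.039, 0.069 and 0.02 RPKM in Ctrl and 0.296, 0.144 and 0.202 RPKM in icKO samples. Itgam and Itgax, the α chains of myeloid cells, reached 0.107 to 0.241 RPKM and 0.0620 to 0.251 RPKM in icKO samples, from values of at most 0.0810 and 0.0190 RPKM in Ctrl. For Itgam, 3450 bp of exon are shared with Gm49368 on the same strand. Itgad, a further leukocyte α chain, was lower at 1.17, 1.38 and 1.31 RPKM in Ctrl and 0.389, 0.560 and 0.296 RPKM in icKO samples. With no filter on RPKM, 12 members were called higher at 4 weeks, with Itga11, Itga2b, Itgam, Itgax and Itgb3 added to the 7 above, beside 21.3% of all genes, and 3 were called lower, beside 7.26%.

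Shares within a sample do not depend on the scaling between samples. With 3 samples a group, the smallest two-sided p of the exact permutation test is 0.1, so shares are given as mean ± SD (n = 3). In adult Ctrl, Itga7 made up 57.1 ± 1.24% of the summed RPKM of the 18 α genes and 48.6 ± 2.99% in icKO samples. Itga5 went from 13.0 ± 2.05% to 28.5 ± 0.640%, Itgav from 5.53 ± 0.353% to 10.54 ± 1.59% and Itga9 from 15.7 ± 0.930% to 6.13 ± 0.564%, and none of these 4 overlapped between groups. The share of Itgb1 among the β genes was 80.4 ± 2.41% in Ctrl and 81.9 ± 0.218% in icKO samples, which overlapped, and that of Itgb6 went from 3.46 ± 1.35% to 0.0933 ± 0.0443%. Lama4 went from 8.34 ± 1.25% to 19.5 ± 2.72% of the laminin α genes, while Lama2 went from 41.9 ± 2.19% to 36.0 ± 1.97%, both without overlap. Embryonic α shares also moved, with Itgav from 10.7 ± 0.189% to 13.8 ± 0.636%, Itga6 from 37.3 ± 1.88% to 31.9 ± 2.26% and Itga4 from 6.14 ± 1.53% to 3.59 ± 0.156%, without overlap, while Itga5 went from 22.4 ± 2.52% to 26.6 ± 1.82% with overlap.

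**Figure D4:**
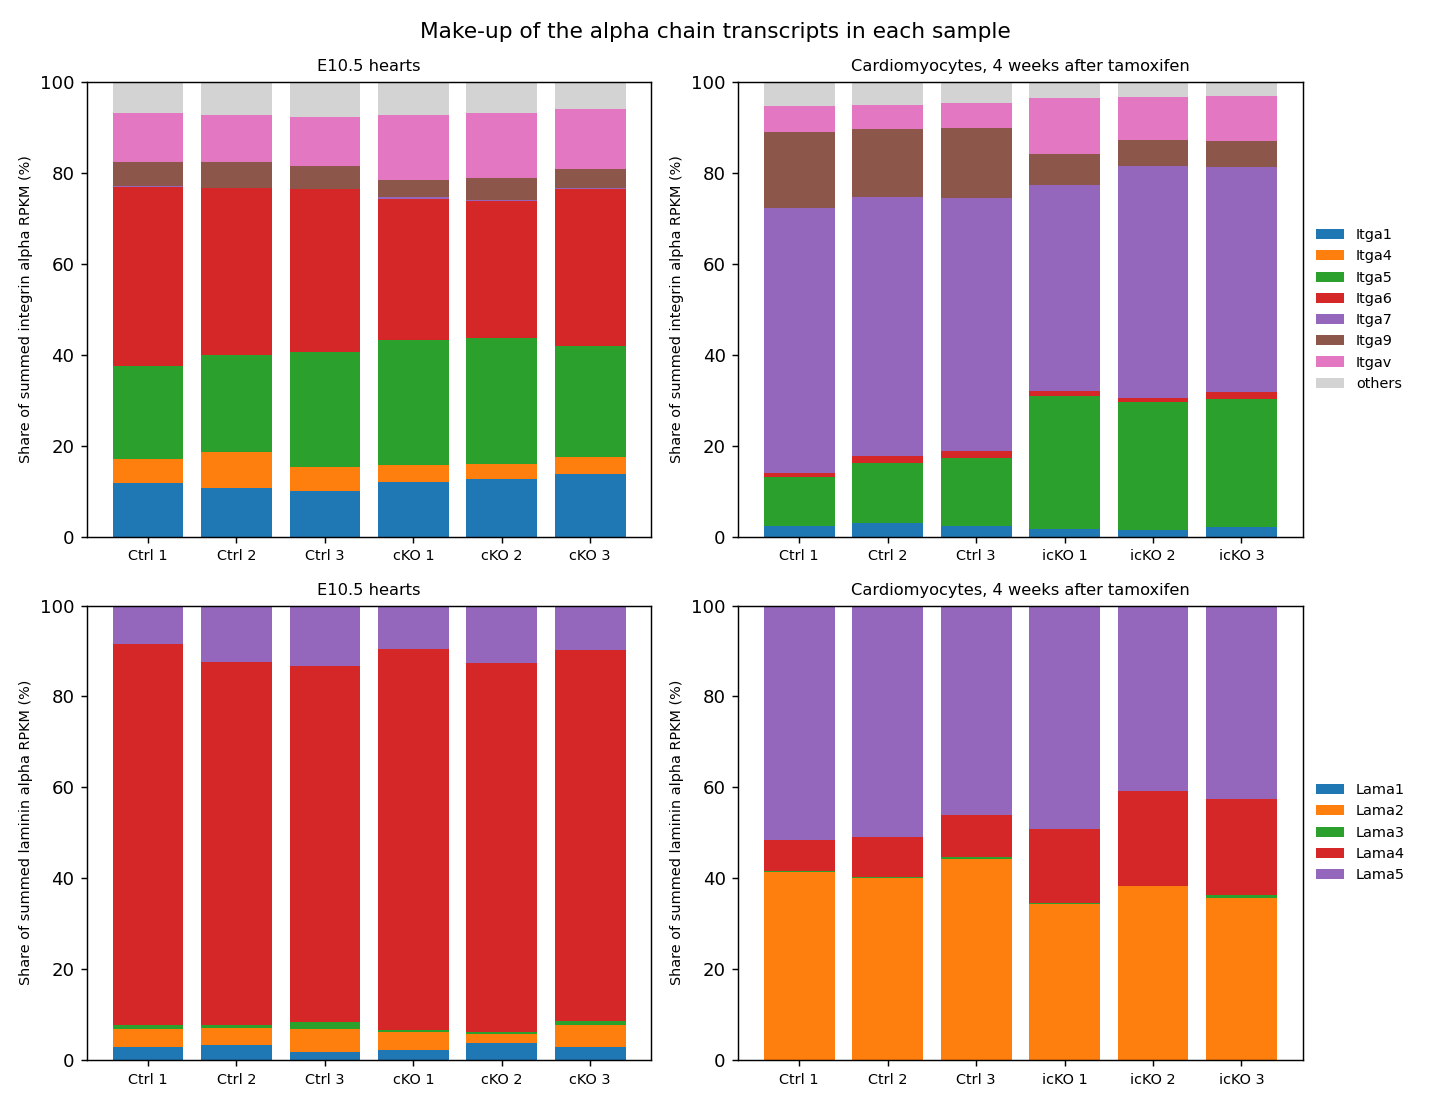
Share of each gene in the summed RPKM of the 18 integrin α genes (top) and of the 5 laminin α genes (bottom) in every sample, as stacked bars that fill the height; grey holds the α genes not named. In adult cardiomyocytes Itga5 takes 28.5% on average in icKO samples against 13.0% in Ctrl, and Lama4 takes 19.5% against 8.34%.

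To ask whether the effect of losing Med30 differed between the embryonic and the adult material, the difference of the log2 fold changes was tested in a limma fit of all 12 samples for the 14 members tested at both stages. It was past an adjusted p of 0.05 in 8 members, all with the larger effect at 4 weeks, beside 68.7% of the 8909 genes tested, and the median difference over all those genes was itself 0.69. After median-ratio scaling 10 members differed, beside 53.2% of all genes. Of these, Itga5, Itgav, Itgb1, Itgb5 and Lamc1 had the larger effect at 4 weeks in both scalings, with differences of 0.68 to 1.20 after scaling. The other members, Itga9, Lama2, Lama5, Lamb1 and Lamb2, had the lower effect at 4 weeks, with differences of -0.74 to -0.93. The stages also differ in tissue, since whole hearts hold other cells than cardiomyocytes, and tissue and stage cannot be told apart.

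Genes for the partners of integrins were taken from a list of 29 cytoplasmic proteins. At 4 weeks 25 were tested, 13 were called higher and 1 lower, where 28.0% and 8.45% of all genes were, with a median log2 fold change of 1.43 as deposited and 0.90 after median-ratio scaling. Actn1, encoding the α-actinin of focal adhesions, had the largest rise on the list, from a mean of 3.18 to 73.3 RPKM (log2 fold change 4.47). Talin-1 (Tln1) rose from 13.6 to 75.9 RPKM, zyxin (Zyx) from 8.31 to 73.9 RPKM, filamin C (Flnc) from 70.3 to 311 RPKM, vinculin (Vcl) from 37.2 to 104 RPKM and integrin-linked kinase (Ilk) from 18.7 to 51.4 RPKM. Lims1, whose PINCH1 protein binds integrin-linked kinase, fell from 23.2 to 10.6 RPKM (log2 fold change -1.14). Tensin-1 (Tns1), the list's most abundant gene in Ctrl, went from 162 to 85.4 RPKM with a log2 fold change of -0.92, short of the limit as deposited and past it after median-ratio scaling (-1.46). Itgb1bp2, encoding melusin, a muscle protein that binds the β1 tail, was at 85.2 RPKM in Ctrl and 86.6 RPKM in icKO samples (log2 fold change 0.02 as deposited and -0.52 after median-ratio scaling). Under that scaling 10 genes of the list were called higher and 3 lower, where 11.3% and 15.9% of all genes were. Scaled values are not given here for Tln1, Zyx, Flnc, Vcl and Ilk, whose rises may not all be calls under it. At E10.5, 27 of the 29 were tested, with a list median of 0.17 against -0.13 over all genes. Lims2 alone was called, higher from 0.565 to 2.03 RPKM (log2 fold change 1.69, limma adjusted p = 0.0215), beside 0.239% of all genes. With its Ctrl mean under 1 RPKM, Lims2 passed the filter for testing only through cKO.

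**Figure D5:**
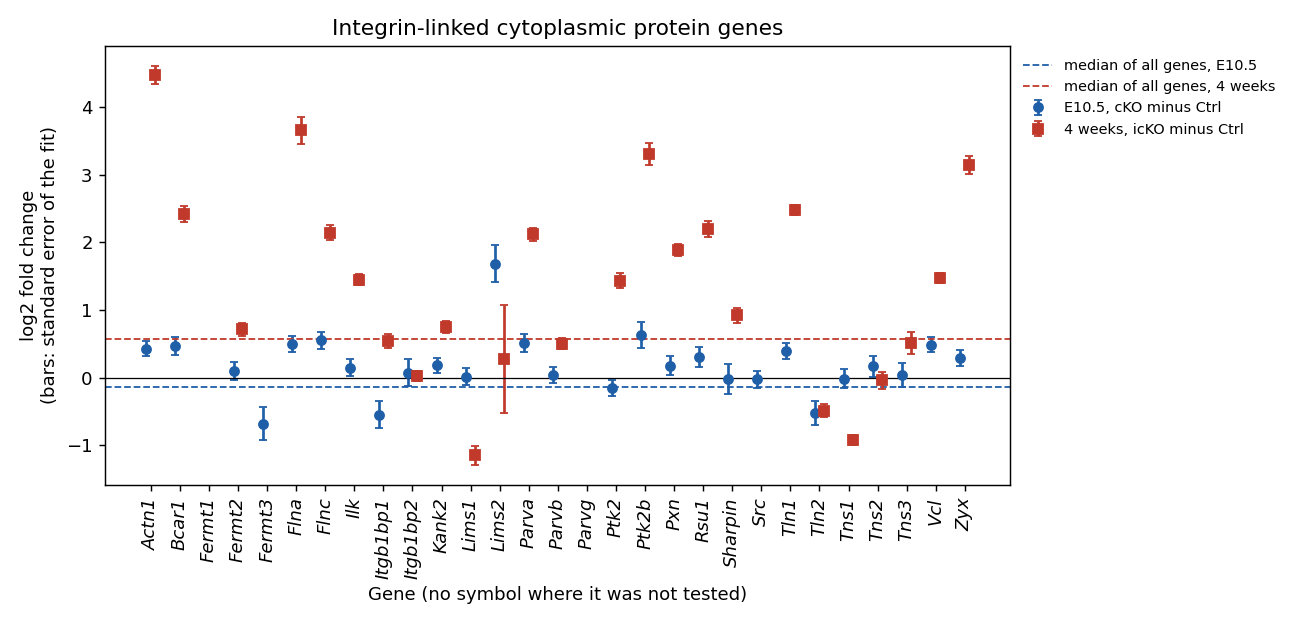
Log2 fold change, with the standard error of the limma fit, of the genes for integrin-linked cytoplasmic proteins at E10.5 (circles) and 4 weeks (squares); dashed lines are the medians of all genes at each stage. At 4 weeks the genes run from Lims1 at -1.14 to Actn1 at 4.47, and at E10.5 only Lims2, at 1.69, lies beyond 1.

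Other ligands and basement membrane proteins moved in both directions at 4 weeks. Of 24 listed genes 13 were tested, 8 were called higher and 2 lower, with a median log2 fold change of 1.39, beside the same 28.0% and 8.45% of all genes. After median-ratio scaling 6 were called higher and 2 lower, with a median of 0.88, beside 11.3% and 15.9%. Scaled values of the single genes named next are not given, and their rises may not all be calls under that scaling. Mfge8, whose protein binds αv integrins, rose from 26.3 to 305 RPKM (log2 fold change 3.52), and the type IV collagen genes Col4a1 and Col4a2, the collagen network beside laminin, rose from 20.1 to 86.1 RPKM and from 29.9 to 75.0 RPKM. Fibronectin (Fn1), the main ligand of α5β1, rose from 0.660 to 5.99 RPKM (log2 fold change 2.98). With its Ctrl mean under 1 RPKM, Fn1 passed the filter for testing only through icKO. Fbln1, encoding fibulin-1, fell from 12.7 to 1.25 RPKM (log2 fold change -3.31), and Cyr61, a matricellular ligand, from 114 to 49.2 RPKM (log2 fold change -1.19). At E10.5 19 of these genes were tested and none was called, beside 0.239% higher and 0.542% lower of all genes, with a median of 0.38. Of 7 other laminin receptors and partners, 6 were tested at 4 weeks. As deposited, 2 were called higher, near the 28.0% of all genes, and none lower, beside 8.45%. After median-ratio scaling none was called, beside 11.3% higher and 15.9% lower. Of the 2, Sdc4 showed the larger change, from 3.38 to 9.94 RPKM (log2 fold change 1.52). The abundant Dag1, which encodes dystroglycan, the laminin receptor outside the integrin family, was at 104 RPKM in Ctrl and 122 RPKM in icKO samples (log2 fold change 0.22 as deposited, -0.32 after median-ratio scaling). At E10.5 all 7 were tested and none was called, beside the same 0.239% and 0.542% of all genes.

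Some marker sums of other cell types differed between the adult groups. The summed RPKM of 9 fibroblast markers was 5.34, 6.87 and 9.11 in Ctrl and 88.7, 61.6 and 64.6 in icKO samples. Only 5 of the markers were tested. All 5 were called higher, beside 28.0% of all genes, and 4 after median-ratio scaling, beside 11.3%. Col1a1, Col1a2, Col3a1 and Postn had Ctrl means of 0.435, 0.703, 0.909 and 0.367 RPKM. These passed the filter only through icKO, so the count of calls was partly set by the filter. The sum of 9 endothelial markers was 11.9, 22.8 and 31.6 in Ctrl and 34.7, 31.6 and 57.9 in icKO samples. Called higher were 3 of 9, near the 28.0% of all genes, and none after median-ratio scaling, beside 11.3%. Ctrl replicate 1, lowest in the endothelial sum, was the lowest Ctrl sample in Itga1, Itga3, Itga5, Itga6, Itga7, Itgb5, Itgb6, Lama4, Lamb2 and Lamc1. Of the other tested members, it was the highest Ctrl sample in Itgb1, Lama2 and Lama5 and the middle one in Itga9, Itgav, Lamb1 and Lamb3. Leukocyte markers summed to 3.06 to 5.22 RPKM in Ctrl and 7.56 to 11.2 RPKM in icKO samples, with Ptprc, their defining gene, at means of 0.0217 and 0.0673 RPKM, and mural markers summed to 526 to 596 RPKM and 1047 to 1221 RPKM, carried by Des, which cardiomyocytes also express. Platelet markers summed to 1.26 to 1.80 RPKM against 3.09 to 4.33 RPKM. Epicardial markers ranged over 1.06 to 3.05 RPKM against 1.97 to 4.05 RPKM, endocardial markers over 3.89 to 6.34 RPKM against 6.07 to 7.69 RPKM and erythroid markers over 1.29 to 21.2 RPKM against 11.4 to 26.3 RPKM. The 8 cardiomyocyte markers, high in every sample, summed to 18041 to 19286 RPKM in Ctrl and 6561 to 7953 RPKM in icKO samples. Called lower were 5 of them, beside 8.45% of all genes, and 6 after median-ratio scaling, beside 15.9%. Actn2 and Nkx2-5 went the other way, from means of 626 to 1139 RPKM and from 23.5 to 39.1 RPKM. Their log2 fold changes were 0.86 and 0.74 as deposited and 0.32 and 0.20 after median-ratio scaling. The part of these shifts in the changes of integrin and laminin genes was not tested. In bulk samples, fewer cells of a type and less RNA per cell cannot be told apart. At E10.5 the leukocyte sum was lower in cKO (5.02 to 6.88 RPKM against 8.90 to 11.95 RPKM). Most of it was Lyz2, at means of 7.72 RPKM in Ctrl and 3.77 RPKM in cKO, while Cd68 was at 1.67 and 1.57 RPKM. The cardiomyocyte sum was 3044 to 3578 RPKM against 3863 to 5020 RPKM. Most of it was Actc1 (means of 2787 RPKM in Ctrl and 1975 RPKM in cKO) and Tnnt2 (889 and 639 RPKM), neither called. Pln alone of the 8 markers was called, lower from 94.7 to 30.5 RPKM, beside 0.542% of all genes. Tnni3 (183 and 139 RPKM) and Ryr2 (40.0 and 32.0 RPKM) were lower without a call. Myh6 (302 and 288 RPKM), Actn2 (164 and 167 RPKM) and Nkx2-5 (27.6 and 26.1 RPKM) were nearly level. The mural sum was higher at 570 to 663 RPKM against 508 to 550 RPKM. In the mural list Acta2 was at means of 366 RPKM in Ctrl and 468 RPKM in cKO, without a call. Des was at 126 and 127 RPKM and Abcc9 at 16.9 and 13.1 RPKM. The endothelial, fibroblast, epicardial, endocardial, platelet and erythroid sums overlapped, the last with cKO replicate 1 at 2256 RPKM against 241 to 884 RPKM in the other 5 samples.

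Promoter sequences are shown for every called member of adult cardiomyocytes that the RefSeq table (GRCm38.p6) holds, a choice made after their values were seen. Each window runs from 250 bases before to 50 bases after an annotated start and is printed 5′ to 3′ on the gene's strand, with matches of the motifs searched in capitals.
Itga5: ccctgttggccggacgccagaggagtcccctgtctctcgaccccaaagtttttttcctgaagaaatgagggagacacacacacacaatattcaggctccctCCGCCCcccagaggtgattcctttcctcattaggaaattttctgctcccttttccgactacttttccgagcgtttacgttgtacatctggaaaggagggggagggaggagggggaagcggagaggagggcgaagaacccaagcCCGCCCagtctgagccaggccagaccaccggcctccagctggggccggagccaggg
Itgav: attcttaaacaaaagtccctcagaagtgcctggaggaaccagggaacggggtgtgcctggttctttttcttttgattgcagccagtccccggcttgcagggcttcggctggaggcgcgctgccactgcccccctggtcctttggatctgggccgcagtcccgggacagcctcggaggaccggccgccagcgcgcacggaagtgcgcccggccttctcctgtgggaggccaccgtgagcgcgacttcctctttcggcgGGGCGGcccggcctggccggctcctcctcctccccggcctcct
Itgb1: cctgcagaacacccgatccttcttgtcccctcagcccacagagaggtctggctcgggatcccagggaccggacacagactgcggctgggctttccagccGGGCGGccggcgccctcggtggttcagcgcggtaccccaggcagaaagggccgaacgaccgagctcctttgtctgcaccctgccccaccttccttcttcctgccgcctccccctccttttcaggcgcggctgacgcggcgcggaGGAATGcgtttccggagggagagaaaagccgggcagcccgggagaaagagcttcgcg
Itgb5: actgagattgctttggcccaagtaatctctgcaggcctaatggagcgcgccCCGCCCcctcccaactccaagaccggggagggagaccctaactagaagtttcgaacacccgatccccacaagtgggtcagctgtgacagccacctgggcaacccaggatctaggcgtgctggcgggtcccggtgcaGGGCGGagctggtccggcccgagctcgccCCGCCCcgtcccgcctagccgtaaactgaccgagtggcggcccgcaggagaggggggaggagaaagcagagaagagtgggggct
Itgb6: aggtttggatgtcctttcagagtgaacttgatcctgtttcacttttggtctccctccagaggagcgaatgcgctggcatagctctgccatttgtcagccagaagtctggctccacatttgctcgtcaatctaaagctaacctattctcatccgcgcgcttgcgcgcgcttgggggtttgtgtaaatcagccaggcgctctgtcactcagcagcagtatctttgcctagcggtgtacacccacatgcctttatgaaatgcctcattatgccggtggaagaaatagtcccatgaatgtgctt
Lamb3: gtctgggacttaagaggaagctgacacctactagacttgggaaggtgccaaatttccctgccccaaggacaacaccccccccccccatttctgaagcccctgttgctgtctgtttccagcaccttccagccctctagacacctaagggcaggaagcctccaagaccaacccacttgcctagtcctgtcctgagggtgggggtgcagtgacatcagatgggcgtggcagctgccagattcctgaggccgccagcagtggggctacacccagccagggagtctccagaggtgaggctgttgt
The windows lie at chr15:103366742-103367041 (minus strand, Itga5), chr2:83724147-83724446 (plus strand, Itgav), chr8:128685404-128685703 (plus strand, Itgb1), chr16:33829415-33829714 (plus strand, Itgb5), chr2:60722554-60722853 (minus strand, Itgb6) and chr1:193301744-193302043 (plus strand, Lamb3). Both strands were searched for the GC box (letters GGGCGG), for the AP-1 site by its consensus TGANTCA, for the M-CAT element in the form GGAATG, for a TATA box as TATAAA, for an E-box of the form CACGTG and for the CArG box, and no matches overlapped in the windows shown. The capitals above mark GC boxes, with 2 in Itga5, 1 in Itgav, 1 in Itgb1 and 3 in Itgb5, and an M-CAT element in Itgb1. None of these motifs was found in the Itgb6 and Lamb3 windows shown, while a second annotated start of each held 1 match, of the CArG box for Itgb6 and of M-CAT for Lamb3. Of the 32851 windows in the table, 35.7% held a GC box, 7.81% an AP-1 site, 14.7% an M-CAT element, 13.6% a TATA box, 7.15% the E-box and 1.63% a CArG box. The table had a window for 23 of the 36 members. GC content was 58.7%, 67.3%, 67.3% and 65.7% in the Itga5, Itgav, Itgb1 and Itgb5 windows and 50.3% and 59.3% in those of Itgb6 and Lamb3, against a median of 52.7% over all windows. A match describes letters in the window only.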

How the data were processed

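RNA was sequenced from E10.5 hearts and adult cardiomyocytes (4 groups of 3 samples), after ribosomal RNA depletion. The authors deposited RPKM per gene by symbol, with no counts. The submitters' processing notes name cutadapt 2.6, STAR 2.5.3a, HOMER 4.11.1, DESeq2 1.12.4 and the build mm10, and per the study's methods reads were mapped and counted, genes above 1 RPKM were kept for testing (the deposited tables also list lower ones) and DESeq2 was run at its defaults with apeglm shrinkage. The settings of alignment and counting and the strand used are not given in the sources used here. The tables also hold the authors' log2 fold change, FDR and mean RPKM, which were not used.

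Reads per sample were estimated from RPKM and GENCODE vM21 gene lengths as the depth at which low values fall nearest to whole reads. At that depth 66.9% to 75.0% of those values were whole to within 0.1 read (chance gives 20%), so reads were not recovered and no count test was run. Each stage was fitted with limma 3.58.1 (lmFit, eBayes with trend, R 4.3.3) on log2(RPKM + 0.1), without covariates and with Benjamini-Hochberg adjustment over all genes averaging more than 1 RPKM in the stage. A fold change on this scale understates the change of low genes. The fits were tested on simulated data. Alternatives comprised median-ratio scaling, scaling without the 20 most abundant genes, other pseudocounts (1 and 0.01), dropping the RPKM filter, a replicate block and leaving out each sample. Values in every sample are given for members at each stage where they were called or had a mean above 5 RPKM in a group. The rest is given by range, bound or count. Exceptions are Itga1 at 4 weeks, Lama5 at E10.5, and Itga3, Itga11, Itgb3 and Itgad, chosen after their values were seen. From the lists, genes named are the called gene with the largest change in each direction and genes above 50 RPKM. One gene matching the symbol rule is not reported here. The members and all lists were chosen with earlier results of these data known.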

Additional observations from a re-analysis of the deposited data

Results flagged for a closer look

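The effect of losing Med30 differed between the stages in 8 members by the limma contrast over all 12 samples, each with the larger effect in adult cardiomyocytes 4 weeks after tamoxifen. The difference of the log2 fold changes was 1.86 for Itga5, 1.57 for Lamc1, 1.54 for Itgb5, 1.51 for Itgav, 1.34 for Itgb1, 1.18 for Itga6, 0.995 for Lama4 and 0.53 for Itga3. The median difference over all 8909 genes tested was 0.69, and 68.7% of them passed the same threshold. After median-ratio scaling the differences of Itga5 (1.20), Lamc1 (0.91), Itgb5 (0.88), Itgav (0.86) and Itgb1 (0.68) passed, while those of Itga6 (0.56), Lama4 (0.35) and Itga3 (-0.11) did not. Stage and tissue cannot be told apart here.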

How the results depend on the processing

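At E10.5 the counts of members called higher and lower were 0 under every alternative run. The 2 members higher at an adjusted p under 0.05 became 1 with no RPKM filter, 5 with median-ratio scaling, 5 when scaled without the 20 most abundant genes, and 0 to 2 on leaving out single samples. At 4 weeks the 7 members called higher became 12 with no RPKM filter and 4 with median-ratio scaling, were 5 with a pseudocount of 1 or without the 20 most abundant genes, and were 6 to 8 on leaving out samples. The 2 members called lower became 3 with no RPKM filter and were 1 to 2 on leaving out samples. The 3 members lower at an adjusted p under 0.05 became 7 with median-ratio scaling and 5 when scaled without the 20 most abundant genes. The 8 members that differed between stages became 15 with no RPKM filter, where more genes were tested, and were 8 on leaving out each sample.

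Directions turned for Itga9 at E10.5 with median-ratio scaling (0.075) and without the 20 most abundant genes (0.13), and at 4 weeks for Lamb1 (-0.37 and -0.077) and Lamb2 (-0.47 and -0.17). On leaving out samples at E10.5, log2 fold changes ran over -0.10 to 0.12 for Itga6, -0.16 to 0.035 for Itga9, -0.18 to 0.20 for Itgb5, -0.46 to 0.13 for Lama2 and -0.12 to 0.16 for Lama5. These turns follow the scaling or the smaller groups, and other causes were not tested.

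Samples with the same replicate number did not deviate together throughout (correlations of 0.01, 0.10 and -0.07 at E10.5 and 0.15, 0.04 and 0.05 at 4 weeks), so the numbers were not taken to pair samples. With the replicate number as a block, 1 member (Itgav) was higher at an adjusted p under 0.05 at E10.5 (Itga5: limma adjusted p = 0.0735), and the other counts stayed within 1.5 times. The depth of 11.9 to 19.9 M reads leaves members with all values at or under 3 reads without a usable direction, and 3 samples per group limit every comparison.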
